A study of Danio rerio with 36 samples.

Results

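The genes described here are 10 zebrafish genes of the interferon response: the Mx genes mxa, mxb, mxc, mxe and mxf, the antiviral genes isg15 and rsad2, and the interferon regulatory factors irf1b, irf7 and irf9. They were selected on their gene symbol, and 10 of 10 were found among the 24860 genes of experiment 1 and among the 25077 genes of experiment 2. The list was chosen with results of these data known, mxf being one of the genes already seen to be lower in axenic heads of experiment 1; which other values bore on the choice is not given. The axenic comparisons of experiment 1 are therefore described for these genes by levels, fold changes and errors, without p-values. Whether the values of experiment 2 also bore on the choice is not known, so its p-values cannot be taken as independent of it.

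RNA was sequenced from 36 libraries of pooled larval zebrafish heads, taken forward of the swim bladder at 10 days of age, from one mixed wild-type line (US EPA). Axenic larvae were raised free of microbes, re-colonized larvae were derived axenic and given microbes 1 day after fertilization, and conventional larvae carried their normal microbes; the re-colonized group controls for the axenic derivation. Experiment 1 had 6 axenic, 6 re-colonized and 6 conventional libraries of ribosomal-RNA-depleted total RNA, and experiment 2 had 4 axenic, 7 re-colonized and 7 conventional libraries of polyA RNA, prepared in another laboratory. In experiment 1 the names of all axenic and re-colonized libraries carry L6 and those of all conventional libraries L7. In experiment 2 some S numbers in the names of conventional libraries repeat those of the other groups, which share none. What these marks stand for is not given. In comparisons with conventional heads, anything tied to them cannot be told apart from colonization. How many heads a pool held is not given in the sources used here, and replicates are known only as separate pools, so the spread behind each p-value is that between pools, which may be technical in part.

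Libraries summed to between 11716737 and 15017645 counts in experiment 1 and between 15148068 and 25760598 in experiment 2. The biological coefficient of variation, the typical relative spread of a gene between replicates, was 16.5% in experiment 1 and 35.5% in experiment 2. Neuron marker genes were present in every group, with a summed level of 785 to 1045 CPM in experiment 1 and 1565 to 3370 CPM in experiment 2. CPM is the count scaled to a library of 1000000 counts. Because it is not corrected for gene length, levels are compared between groups of one gene and not between genes.

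Interferons are secreted proteins that bind cell-surface receptors and act through Jak kinases and Stat transcription factors to switch on a large set of interferon-stimulated genes. In vertebrates these genes include the Mx proteins, dynamin-like GTPases that block viruses inside the cell, and regulatory factors of the Irf family, which bind the promoters of interferons and of interferon-stimulated genes. In mice, resident microbes are known to keep a low, steady level of interferon-stimulated genes in the absence of infection.

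The annotation in the deposited tables, on GRCz11, places mxf on chromosome 15 (5086338 to 5106172, plus strand). The other 4 Mx genes form pairs of neighbours: mxa (7562316 to 7570182) and mxb (7574351 to 7603735) on the minus strand of chromosome 1, and mxc (32805688 to 32813178) and mxe (32824639 to 32837861) on the minus strand of chromosome 9. The gene isg15 lies on chromosome 5 (20112032 to 20113285, plus strand) and rsad2 on chromosome 17 (35357451 to 35361323, minus strand). The regulatory factors irf1b, irf7 and irf9 lie on chromosome 21 (45626136 to 45633318, plus strand), chromosome 25 (25546789 to 25550956, minus strand) and chromosome 12 (13282797 to 13306884, plus strand). All are listed as protein coding. The listed span of rsad2 falls inside that of esrrb (29797876 to 52386519) and the span of irf7 inside that of si:dkeyp-67e1.6 (15494040 to 28587897), and whether reads could be shared there was not tested.

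Neighbouring Mx genes did share reads. In each library where a count of mxa or mxb was not whole (1 library in either experiment), the pair added up to a whole number within 0.01, and the same held for mxc and mxe in 1 library of experiment 1 and 3 libraries of experiment 2. Values of each pair are therefore also given as a sum. After the filter on low counts 5 of the 10 genes were tested in experiment 1 (mxf, isg15, irf1b, irf7 and irf9) and 6 of 10 in experiment 2 (those 5 and mxc). The others were at or near 0 in many libraries and are described by their summed counts.

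The Mx gene with the clearest pattern was mxf, which was nearly absent from axenic heads in both experiments. In experiment 1 it had 0, 0, 6, 2, 1 and 0 counts in axenic libraries A, C, D, F, G and H. In the same experiment it had 63, 12, 18, 36, 6 and 13 counts in re-colonized libraries B, D, E, F, G and H, and 18, 17, 6, 37, 21 and 15 counts in conventional libraries A, B, C, F, G and H. Scaled to library size, every axenic library lay below every re-colonized and every conventional library. By counts before scaling, axenic D equalled re-colonized G and conventional C, with 6 counts each. The mean level was 0.106 ± 0.167 CPM in axenic heads (SD, n = 6), against 2.00 ± 1.79 CPM in re-colonized and 1.42 ± 0.656 CPM in conventional heads (SD, n = 6 each). The log2 fold change was -4.11 ± 0.68 (SE) over re-colonized and -3.64 ± 0.70 over conventional heads. Axenic library D held 6 of the 9 axenic counts, and without it the log2 fold changes were -5.26 and -4.80. In such bulk samples fewer cells that express a gene and less of its RNA per cell cannot be told apart.

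In experiment 2 mxf had 0, 4, 2 and 0 counts in axenic libraries 1, 3, 4 and 7. It had 20, 8, 16, 22, 13, 23 and 21 counts in re-colonized libraries 1 to 7, and 2, 30, 23, 2, 9, 9 and 31 counts in conventional libraries 1 to 7. Axenic heads lay below all 7 re-colonized libraries, but overlapped with conventional libraries 1 and 4, which had 2 counts each. Mean levels were 0.0745 ± 0.0868 CPM in axenic heads (SD, n = 4), 0.724 ± 0.239 CPM in re-colonized heads and 0.931 ± 0.912 CPM in conventional heads (SD, n = 7 each). The log2 fold change was -3.57 ± 0.92 over conventional heads (edgeR adjusted p = 0.0209) and -3.23 ± 0.91 over re-colonized heads (edgeR adjusted p = 0.0458). The gene entered this test through its colonized libraries: the level that the filter on low counts asks of 4 libraries was reached by 0 of 4 axenic libraries, by 6 of 7 re-colonized ones and by 3 of 7 conventional ones. Without that filter edgeR gave adjusted p = 0.0202 over conventional and 0.0464 over re-colonized heads. Without axenic 3, which held 4 of the 6 axenic counts, the log2 fold changes were -4.47 over conventional and -4.14 over re-colonized heads. With any 1 library left out they ranged over -4.47 to -3.15 and over -4.14 to -2.8. Against conventional heads the call was lost without axenic 1 (edgeR adjusted p = 0.0601) or axenic 7 (adjusted p = 0.103), and with limma voom (adjusted p = 0.0680). Against re-colonized heads it was lost in 11 of 18 fits that left out 1 library (re-colonized 1, 3, 4, 5, 6 or 7, axenic 1, 4 or 7, or conventional 3 or 6), with edgeR adjusted p = 0.0523 to 0.223, and with voom (adjusted p = 0.0579), while the fold change stayed negative in every such fit.

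Over all libraries of a group, mxf counts summed to 9 in axenic heads, against 148 in re-colonized and 114 in conventional heads of experiment 1. Relative to the summed library sizes these sums were 18.6-fold lower than in re-colonized heads (95% exact interval 9.51 to 41.4) and 13.7-fold lower than in conventional heads (6.99 to 30.8). In experiment 2 the axenic sum of 6, against 123 in re-colonized and 106 in conventional heads, was 10.2-fold lower (4.53 to 28.2) and 12.05-fold lower (5.36 to 33.6). These intervals cover counting error only and leave out the spread between libraries.

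**Figure D1:**
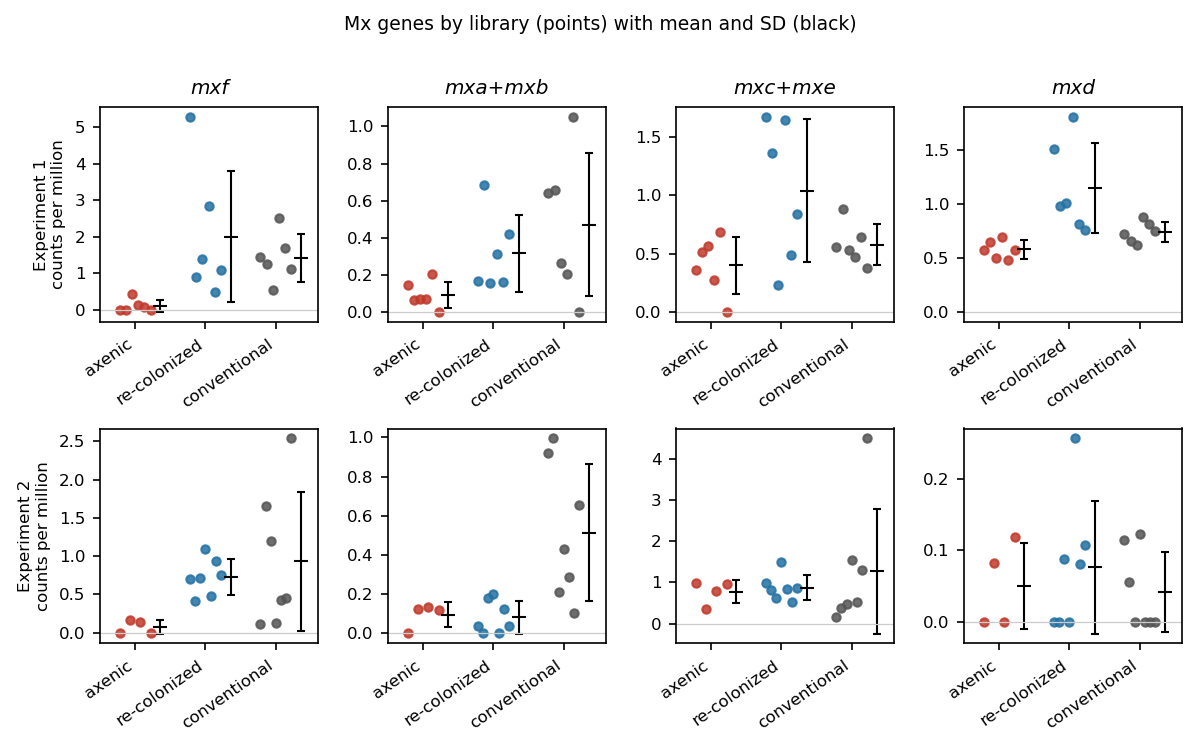
Levels of mxf, of the neighbouring pairs mxa and mxb and mxc and mxe as sums, and of mxd, in CPM (y axis), for each library (points) of the axenic, re-colonized and conventional groups (x axis), with mean and SD in black. The top row is experiment 1 and the bottom row experiment 2; the axenic points of mxf sit at 0 to 0.426 CPM in experiment 1 and at 0 to 0.164 CPM in experiment 2.

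The pair mxa and mxb held few counts in any group. In experiment 1 mxa had 1, 1, 1, 1, 0 and 0 counts in axenic libraries A, C, D, F, G and H. It had 2, 9, 2, 4, 2 and 1 counts in re-colonized libraries and 5.302, 9, 2, 3, 7 and 0 in conventional libraries, in the library order given for mxf. All axenic libraries lay below all re-colonized ones on the CPM scale, and conventional library H, at 0, overlapped with them. By counts before scaling, re-colonized H equalled axenic A, C, D and F, with 1 count each, so that separation rests on library size. The axenic sum of 4 counts was 5.64-fold lower than the 20 counts of re-colonized heads (95% exact interval 1.89 to 22.7) and 7.05-fold lower than the 26 counts of conventional heads (2.45 to 27.8). With mxb added, 8 counts in axenic heads stood against 24 in re-colonized heads, 3.39-fold lower (1.47 to 8.72), and 36 in conventional heads, 4.88-fold lower (2.23 to 12.16).

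In experiment 2 mxb was at 0 in all 4 axenic libraries. It had 1, 0, 0, 0, 0, 3 and 0 counts in re-colonized libraries 1 to 7 and 8, 11.4, 0, 6, 6, 2 and 0 counts in conventional libraries 1 to 7. The axenic libraries overlapped with the 5 re-colonized and 2 conventional libraries at 0. With a floor of 3 counts over the axenic group, mxb was at least 7.50-fold lower than in conventional heads. The summed pair had 8 counts in axenic, 13 in re-colonized and 61 in conventional heads. That was 5.202-fold lower in axenic than in conventional heads (2.48 to 12.6) and 6.46-fold lower in re-colonized than in conventional heads (3.51 to 12.8). Between axenic and re-colonized heads the ratio was 1.24, with an interval of 0.446 to 3.23 that includes 1. Without the filter on low counts, edgeR gave adjusted p = 0.0669 for mxb in axenic over conventional heads and 0.314 in re-colonized over conventional heads. For the summed pair edgeR gave adjusted p = 0.170 and 0.285 in the same 2 comparisons.

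Axenic heads kept more counts of the other pair, mxc and mxe. In experiment 1 mxc had 3, 0, 6, 2, 4 and 0 counts in the axenic libraries. It had 15, 13.7, 3, 19, 4 and 9 counts in the re-colonized and 2, 11, 4, 5, 3 and 3 counts in the conventional libraries, in the same order. Axenic libraries overlapped with both colonized groups. The axenic sum of 15 was 4.81-fold lower than the 64 of re-colonized heads (2.71 to 9.10) and 2.03-fold lower than the 28 of conventional heads (1.05 to 4.08). The gene mxe summed to 20, 14 and 17 counts in axenic, re-colonized and conventional heads, with axenic ratios of 1.27 over re-colonized (0.608 to 2.71) and 1.08 over conventional heads (0.540 to 2.204). As a pair, axenic heads had 35 counts against 78 in re-colonized heads, 2.52-fold lower (1.67 to 3.86), and 45 in conventional heads, 1.40-fold lower (0.877 to 2.24).

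In experiment 2 mxc was detected in every library and was tested. It had 16, 6, 12 and 21 counts in axenic libraries 1, 3, 4 and 7. Its mean was 0.671 ± 0.284 CPM in axenic (SD, n = 4), 0.779 ± 0.209 CPM in re-colonized and 1.04 ± 1.28 CPM in conventional heads (SD, n = 7 each), with overlapping libraries. The log2 fold change did not pass edgeR's test over conventional heads (-0.59 ± 0.63, adjusted p = 0.649) or over re-colonized heads (-0.22 ± 0.62, adjusted p = 0.913). The summed pair gave -0.66 ± 0.62 (edgeR adjusted p = 0.597) and -0.17 ± 0.61 (adjusted p = 0.936). For mxc the highest value, 3.85 CPM in conventional 7, stood against a conventional median of 0.522 CPM.

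Of the Mx genes outside the 10, mxd was lower in axenic heads against 1 of the 2 colonized groups of experiment 1. It averaged 0.579 ± 0.0838 CPM in axenic, 1.15 ± 0.418 CPM in re-colonized and 0.740 ± 0.0948 CPM in conventional heads (SD, n = 6 each). In the order given for mxf, it had 8, 10, 7, 10, 7 and 7 counts in axenic libraries. The re-colonized libraries had 18, 13, 13, 23, 10 and 9 counts. By these counts the groups overlapped, while on the CPM scale every axenic library lay below every re-colonized one. No axenic level exceeded 0.696 CPM, below the filter level of 0.755 CPM, so mxd entered the test through its colonized libraries. The log2 fold change over re-colonized heads was -0.97 ± 0.28 (edgeR adjusted p = 0.0162). Over conventional heads it was -0.35 ± 0.29 (adjusted p = 0.457). In the same experiment mxg, with 0 to 6 counts in a library, summed to 12, 10 and 14 counts in axenic, re-colonized and conventional heads, with axenic ratios of 1.06 over re-colonized (95% exact interval 0.421 to 2.75) and 0.790 over conventional heads (0.334 to 1.84), both including 1. In experiment 2 mxd summed to 5, 14 and 5 counts and mxg to 0, 2 and 0 counts in axenic, re-colonized and conventional heads, too few to compare.

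The gene isg15 encodes a ubiquitin-like protein that is secreted and attached to other proteins during antiviral responses. In experiment 1 it had 12, 9, 12, 9, 21 and 12 counts in axenic libraries A, C, D, F, G and H. In re-colonized libraries B, D, E, F, G and H it had 27, 60, 19, 31, 21 and 32 counts, and in conventional libraries A, B, C, F, G and H 44, 18, 49, 24, 35 and 40. On the CPM scale every axenic library lay below every re-colonized library, and 5 of 6 lay below the lowest conventional library. By counts before scaling, axenic G (21) lay above re-colonized E (19) and equalled re-colonized G (21). It averaged 0.891 ± 0.308 CPM in axenic heads, 2.52 ± 1.09 CPM in re-colonized heads and 2.77 ± 1.14 CPM in conventional heads (SD, n = 6 each). Log2 fold changes were -1.50 ± 0.32 (SE) over re-colonized and -1.62 ± 0.32 over conventional heads.

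In experiment 2 isg15 had 7, 0, 2 and 3 counts in axenic libraries 1, 3, 4 and 7. It had 1, 32, 7, 9, 10, 1 and 5 counts in re-colonized libraries 1 to 7 and 15, 154, 32, 17, 7, 24 and 10 counts in conventional libraries 1 to 7. Conventional library 2 alone stood far above the rest, at 8.52 CPM beside a conventional median of 1.05 CPM. Axenic heads averaged 0.151 ± 0.145 CPM (SD, n = 4), re-colonized heads 0.429 ± 0.551 CPM and conventional heads 2.07 ± 2.88 CPM (SD, n = 7 each). The log2 fold change over conventional heads was -3.77 ± 1.05 (edgeR adjusted p = 0.0329), and 3 of 4 axenic libraries lay below the lowest conventional one. Of the axenic libraries 0 of 4 reached the filter level, against 1 of 7 re-colonized and 6 of 7 conventional ones, and without the filter edgeR gave adjusted p = 0.0309. Without axenic 1 the log2 fold change was -4.61. Without conventional 2 it was -2.71 (edgeR adjusted p = 0.0879), and the call was also lost without conventional 3 (adjusted p = 0.0503) or axenic 3, 4 or 7 (adjusted p = 0.0954, 0.0786 and 0.137). Over re-colonized heads, with overlapping libraries, it was -1.47 ± 1.04 and did not pass (edgeR adjusted p = 0.572), ranging from -2.30 without axenic 1 to -0.60 without re-colonized 2.

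Viperin, the radical-SAM enzyme encoded by rsad2, makes a nucleotide that stops viral RNA synthesis in mammals. In experiment 1 rsad2 had 2, 4, 8, 2, 7 and 2 counts in the axenic libraries. It had 0, 3, 3, 4, 3 and 1 counts in the re-colonized and 14, 1, 6, 7, 15 and 3 counts in the conventional libraries, in the order given for isg15. All groups overlapped. The axenic sum of 25 was 2.00-fold lower than the 46 of conventional heads (95% exact interval 1.201 to 3.39), while the ratio to the 14 counts of re-colonized heads was 1.58 (0.792 to 3.29). The re-colonized sum was 3.16-fold lower than the conventional one (1.71 to 6.22, counting error only). That difference did not pass edgeR's test without the filter on low counts (adjusted p = 0.87). In experiment 2 it had 0, 0, 3 and 0 counts in axenic libraries, a sum of 10 over the 7 re-colonized libraries and a sum of 37 over the 7 conventional libraries, 27 of them in conventional 2. The axenic sum of 3 was 8.41-fold lower than the conventional one (2.66 to 42.7), and without conventional 2 the log2 ratio was -1.41. Without the filter on low counts, edgeR gave adjusted p = 0.389 for rsad2 in axenic over conventional heads. The re-colonized sum was also lower than the conventional one, by 5.1-fold (2.48 to 11.5), an interval that leaves out the spread between libraries. With 1 library left out that log2 ratio ranged from -3.47 to -0.69, and unfiltered edgeR gave adjusted p = 0.43 for this comparison. Between axenic and re-colonized heads it was 1.65-fold lower in axenic heads, with an interval of 0.425 to 9.34 that includes 1.

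**Figure D2:**
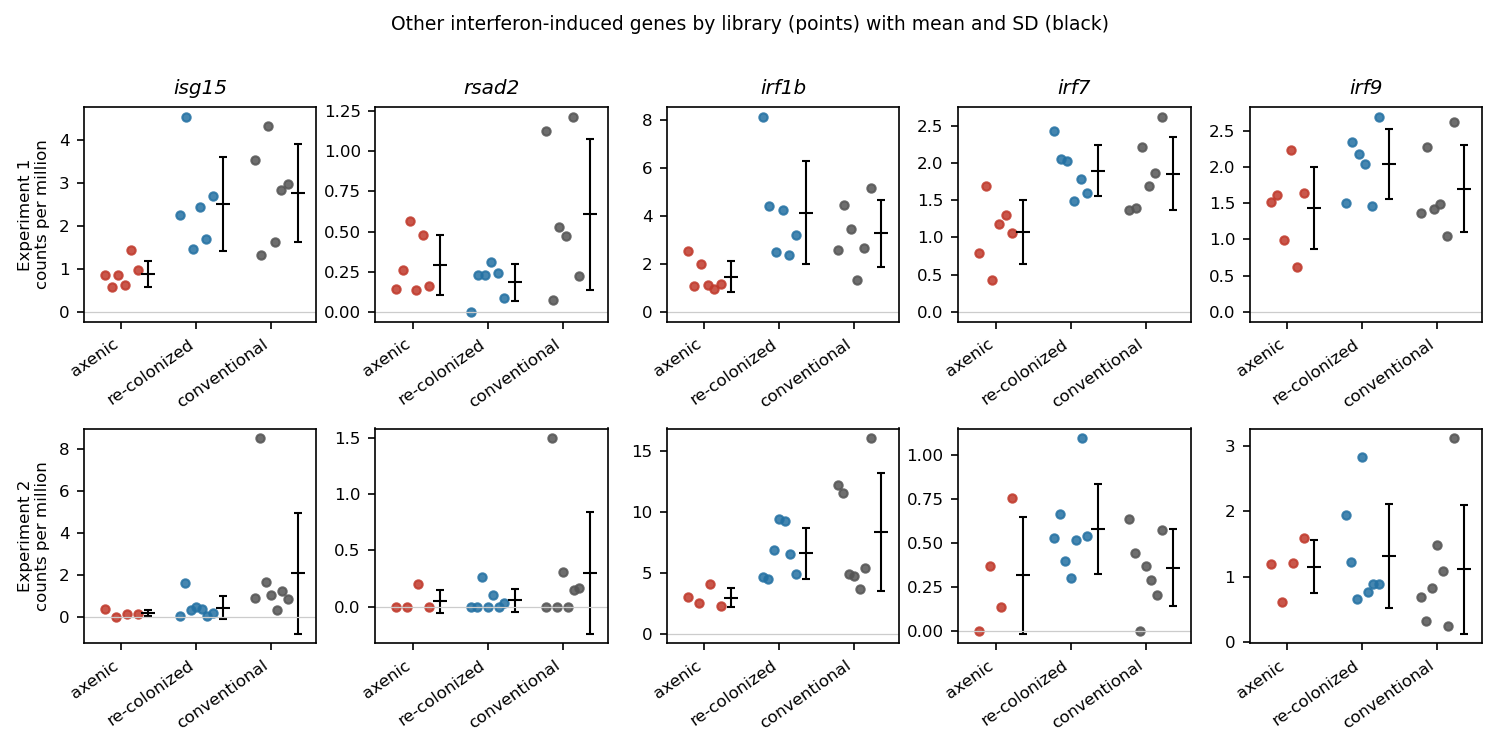
Levels of isg15, rsad2, irf1b, irf7 and irf9 in CPM (y axis) for each library (points) of the axenic, re-colonized and conventional groups (x axis), with mean and SD in black, in experiment 1 (top) and experiment 2 (bottom). In experiment 2 the points of isg15 at 8.52 CPM and of rsad2 at 1.49 CPM are the same library, conventional 2.

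Of the regulatory factors, irf1b, like irf7 below, had a lower mean in axenic than in colonized heads of both experiments. Its mammalian counterpart IRF1 is a transcription factor that is switched on by interferon-gamma and drives antiviral and antigen-processing genes. In experiment 1 irf1b had 35, 17, 28, 16, 14 and 14 counts in axenic libraries. It had 97, 58, 32, 54, 29 and 38 counts in re-colonized and 32, 61, 39, 20, 33 and 69 counts in conventional libraries, in the order given for isg15. On the CPM scale 5 of 6 axenic libraries lay below the lowest re-colonized library and 4 of 6 below the lowest conventional library. Axenic heads averaged 1.47 ± 0.634 CPM, re-colonized heads 4.13 ± 2.13 CPM and conventional heads 3.28 ± 1.39 CPM (SD, n = 6 each). Fold changes on the log2 scale were -1.48 ± 0.33 (SE) over re-colonized and -1.15 ± 0.33 over conventional heads.

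In experiment 2 irf1b had 60, 61, 61 and 57 counts in axenic libraries 1, 3, 4 and 7. It had 133, 88, 155, 190, 252, 161 and 137 counts in re-colonized libraries 1 to 7 and 212, 208, 94, 77, 77, 107 and 196 counts in conventional libraries 1 to 7. All 4 axenic libraries lay below all 7 re-colonized libraries, and 3 of 4 lay below the lowest conventional library. The means were 2.96 ± 0.814 CPM in axenic (SD, n = 4), 6.59 ± 2.09 CPM in re-colonized and 8.35 ± 4.83 CPM in conventional heads (SD, n = 7 each). The log2 fold change over conventional heads was -1.50 ± 0.38 (edgeR adjusted p = 0.0193), and the call was lost without axenic 3 (edgeR adjusted p = 0.0618) or axenic 7 (adjusted p = 0.0975). Over re-colonized heads it was -1.16 ± 0.37 and did not pass edgeR's test (adjusted p = 0.0933), but passed with DESeq2 (adjusted p = 0.0328), with limma voom (adjusted p = 0.0284) and with edgeR on these groups alone (adjusted p = 0.0274).

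The factor irf7, whose mammalian counterpart drives interferon genes after viruses are sensed, had a smaller difference in experiment 1. It had 11, 26, 6, 17, 19 and 13 counts in axenic, 29, 27, 26, 19, 22 and 19 counts in re-colonized and 17, 19, 25, 25, 23 and 35 counts in conventional libraries, in the order given for isg15. On the CPM scale 5 of 6 axenic libraries lay below the lowest library of either colonized group. The means were 1.08 ± 0.432, 1.90 ± 0.342 and 1.86 ± 0.488 CPM in axenic, re-colonized and conventional heads (SD, n = 6 each). On the log2 scale irf7 differed by -0.80 ± 0.26 (SE) over re-colonized and -0.77 ± 0.26 over conventional heads. In experiment 2 irf7 had 0, 9, 2 and 19 counts in axenic libraries 1, 3, 4 and 7, and overlapped with both other groups. Means of irf7 there were 0.3145 ± 0.331 CPM in axenic (SD, n = 4), 0.575 ± 0.255 CPM in re-colonized and 0.358 ± 0.219 CPM in conventional heads (SD, n = 7 each). Its log2 fold change there was -0.11 ± 0.74 over conventional heads (edgeR adjusted p = 0.961) and -0.81 ± 0.72 over re-colonized heads (adjusted p = 0.669).

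The factor irf9, in mammals the DNA-binding subunit of the Stat complex that reads type I interferon signals, had the smallest fold changes of the tested genes in experiment 1. There it had 21, 25, 14, 32, 9 and 20 counts in axenic libraries, with means of 1.44 ± 0.561 CPM in axenic, 2.04 ± 0.480 CPM in re-colonized and 1.70 ± 0.605 CPM in conventional heads (SD, n = 6 each). Its log2 fold change was -0.51 ± 0.28 (SE) over re-colonized and -0.25 ± 0.28 over conventional heads, with overlapping libraries. In experiment 2 the means were 1.15 ± 0.403 CPM in axenic (SD, n = 4), 1.32 ± 0.793 CPM in re-colonized and 1.11 ± 0.978 CPM in conventional heads (SD, n = 7 each). The log2 fold changes of -0.19 ± 0.54 over re-colonized (edgeR adjusted p = 0.915) and 0.084 ± 0.54 over conventional heads (adjusted p = 0.958) were smaller than their errors.

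Counted together, all 5 genes that passed the filter in experiment 1 had negative log2 fold changes in axenic heads over both colonized groups, which share the axenic libraries. Libraries did not overlap for 1 of the 5 (mxf) against conventional heads, with all axenic values below, as for 2.78% of all genes, and for 2 of 5 (mxf and isg15) against re-colonized heads, as for 3.07% of all genes. Because these comparisons were in view when the genes were chosen, nothing is read from those counts. In experiment 2, 3 of the 6 tested genes (mxf, isg15 and irf1b) fell against conventional heads, where 2.15% of 20169 genes fell and 3.99% rose. There, 1 of 6 (mxf) fell against re-colonized heads, where 0.64% of genes fell and 3.25% rose. Axenic libraries lay below every re-colonized library for 2 of 6 (mxf and irf1b), as for 1.24% of genes, and below every conventional library for 0 of 6, where 1.95% of genes did so. Of the 3, mxf and isg15 passed the filter through their colonized libraries, as given above. No axenic library of experiment 2 was without influence on these counts: 3 genes became 0 without axenic 7, 1 (mxf) without axenic 3, and 2 without axenic 1, axenic 4, conventional 2 or conventional 3. Whether the fold changes differed between the experiments was not tested.

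**Figure D3:**
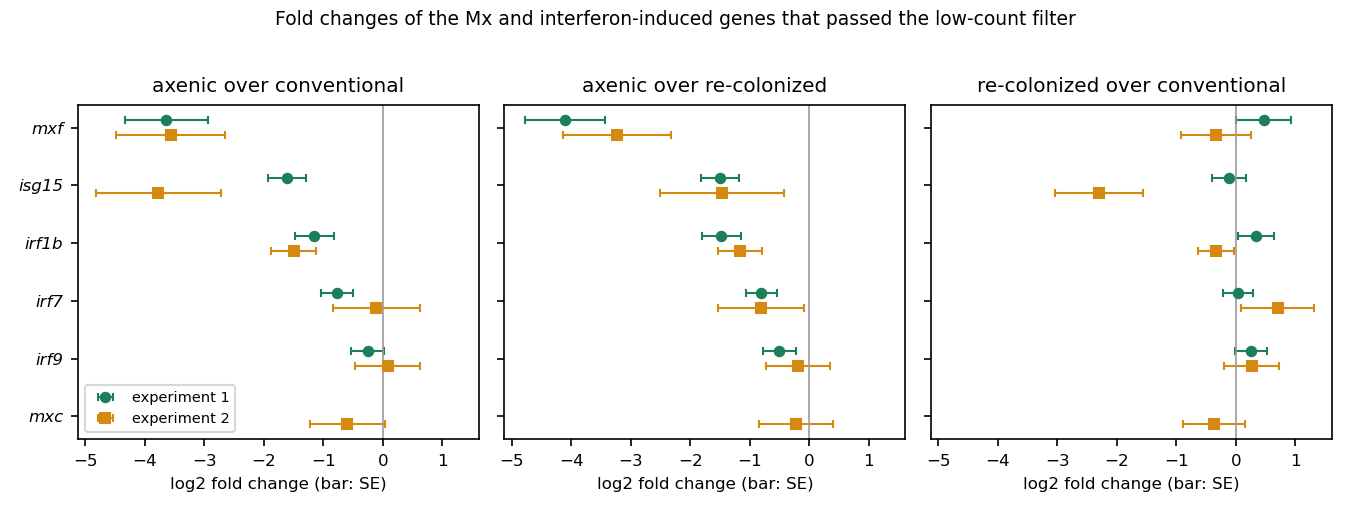
Log2 fold changes (x axis, bars show the SE) of the genes that passed the filter on low counts, for axenic over conventional, axenic over re-colonized and re-colonized over conventional heads, with experiment 1 as circles and experiment 2 as squares. In the axenic panels mxf lies between -4.11 and -3.23, and in the re-colonized over conventional panel the value farthest from 0 is isg15 of experiment 2 at -2.31.

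No tested gene passed the test between re-colonized and conventional heads. In experiment 1 edgeR called 0 of 5, with 0 of 5 at an unadjusted p below 0.05, where 0.0152% of all genes were called. The log2 fold changes of re-colonized over conventional heads were 0.47 ± 0.47 for mxf, -0.12 ± 0.29 for isg15, 0.33 ± 0.30 for irf1b, 0.032 ± 0.25 for irf7 and 0.25 ± 0.27 for irf9, all with edgeR adjusted p = 0.999. In experiment 2 edgeR called 0 of 6, with 1 of 6 (isg15) at an unadjusted p below 0.05, where 0% of all genes were called by edgeR. DESeq2 and voom also called 0 of these genes in either experiment.

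Among the tested genes, the largest log2 fold change between re-colonized and conventional heads was that of isg15 in experiment 2, with 0.429 ± 0.551 CPM in re-colonized and 2.07 ± 2.88 CPM in conventional heads (SD, n = 7 each) and a log2 fold change of -2.31 ± 0.74 (edgeR adjusted p = 0.271). It was -1.24 without conventional 2 and -3.17 without re-colonized 2. The untested pair mxa and mxb lay farther apart there by summed counts, as given above. Others there were -0.34 ± 0.58 for mxf (edgeR adjusted p = 0.820), -0.34 ± 0.30 for irf1b (adjusted p = 0.623) and 0.70 ± 0.61 for irf7 (adjusted p = 0.610).

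In experiment 1 the highest library differed between genes. It was re-colonized B for mxf and irf1b, re-colonized D for mxa and isg15, conventional G for mxb and rsad2, and axenic C for mxe. In experiment 2 the high values on the CPM scale gathered in 2 libraries: conventional 7 was highest for 6 of the 10 genes (mxa, mxc, mxe, mxf, irf1b and irf9) and conventional 2 for 3 (mxb, isg15 and rsad2). Conventional 7 had the fewest total counts of experiment 2 (15148068). By counts before scaling, other libraries were higher for mxe, irf1b and irf9, and conventional 1 was equal for mxa. Conventional 7 and conventional 2 also had the highest summed pan-leukocyte marker levels of the conventional group, at 284 and 275 CPM. Conventional 6 was close at 273 CPM, but was highest for 0 of the 10 genes. Macrophage and microglia markers summed to 969 CPM in conventional 7, the highest, but to 424 CPM in conventional 2, near the lowest (415 CPM in conventional 5). Neutrophil markers summed to 688 CPM in conventional 2, the highest, and to 510 CPM in conventional 7, below 566 CPM in conventional 4. As for experiment 1 below, this sum is not read as neutrophil content. The part of leukocyte content in the levels of the 10 genes was not tested.

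**Figure D4:**
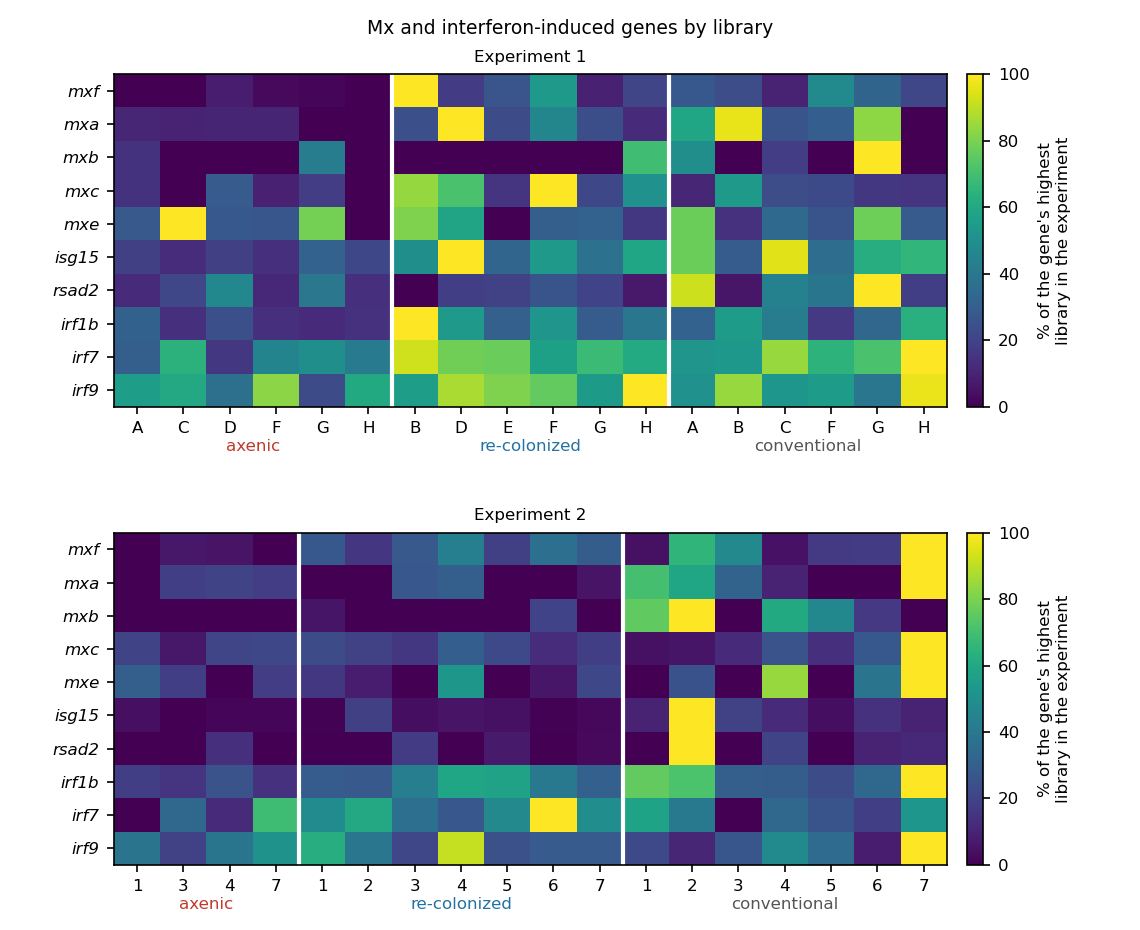
Each gene's level in each library as a percent of that gene's highest library in the experiment (colour scale, starting at 0), with genes as rows and libraries as columns grouped into axenic, re-colonized and conventional. In experiment 2 the brightest cells of 9 of the 10 genes lie in conventional 2 and conventional 7, and in experiment 1 they are spread over several libraries.

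The interferon ligands that could be looked up were barely detected. Of 7 ligand symbols, 2 were found in experiment 1, and neither passed the filter. In experiment 2, 0 of the 7 were found. A symbol that is absent gives no measure of expression. The type I interferon gene ifnphi1 summed to 9, 5 and 5 counts in axenic, re-colonized and conventional heads, and ifnphi3 to 5, 9 and 2 counts.

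Downstream of the ligands, a few receptor and signalling genes were lower in axenic heads of experiment 1, mostly by less than mxf and isg15. The lists below were chosen with earlier results of these data known, so their p-values cannot be taken as independent of that. Over all 19727 genes tested in experiment 1, 6.71% fell and 8.89% rose against conventional heads, and 8.27% fell and 8.67% rose against re-colonized heads, with medians of -0.0085 and 0.0088. Of 10 tested receptor and Jak genes, 2 fell against conventional heads and 3 against re-colonized heads, with median log2 fold changes of -0.27 and -0.23. They included tyk2, a kinase of type I interferon receptors in mammals, at -0.42 ± 0.13 over conventional (edgeR adjusted p = 0.0240) and -0.56 ± 0.12 over re-colonized heads (adjusted p = 0.00260). Of 4 Stat genes, 2 fell in both comparisons. The larger change was that of stat1b, a zebrafish copy of the central interferon Stat, with 0.343 ± 0.139 CPM in axenic, 1.36 ± 0.425 CPM in re-colonized and 0.911 ± 0.599 CPM in conventional heads (SD, n = 6 each). Its log2 fold change was -1.96 ± 0.43 over re-colonized (edgeR adjusted p = 0.00228) and -1.39 ± 0.45 over conventional heads (adjusted p = 0.0353). The axenic mean lay below the filter level of 0.755 CPM, so stat1b entered the test through its colonized libraries. In experiment 2 edgeR called 0 of the 10 receptor and Jak genes and 0 of the 4 Stat genes lower in either comparison, where 2.15% and 0.64% of all genes fell. Against conventional heads 3 of the 10 and 2 of the 4 were lower at an unadjusted p below 0.05, with 2 and 2 called by DESeq2 and 1 and 1 by voom. Against re-colonized heads 2 of the 10 and 1 of the 4 were lower at an unadjusted p below 0.05, and DESeq2 and voom called 0.

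Of 6 tested regulatory factors besides irf1b, irf7 and irf9, 1 fell against conventional and 3 against re-colonized heads in experiment 1, with medians of -0.40 and -0.40. The gene that fell in both was irf8, a factor of macrophage development, at -0.84 ± 0.28 over conventional (edgeR adjusted p = 0.0443) and -1.03 ± 0.28 over re-colonized heads (adjusted p = 0.0120). The other copy of the irf1 gene, irf1a, fell by 2.31 ± 0.65 on the log2 scale against re-colonized heads (edgeR adjusted p = 0.0146), along with irf2. Levels of irf1a were 0.202 ± 0.136 CPM in axenic and 1.04 ± 0.844 CPM in re-colonized heads (SD, n = 6 each). With its axenic mean below the filter level of 0.755 CPM, irf1a entered the test through colonized libraries. In experiment 2 edgeR called 0 of 7 such factors lower in either comparison. Against conventional heads 3 were lower at an unadjusted p below 0.05, and DESeq2 and voom called 1 each, while against re-colonized heads all of these counts were 0. Of 14 nucleic acid sensors and adaptors, 4 fell and 1 rose in each comparison of experiment 1, among them tbk1, the kinase that activates Irf factors (-0.39 ± 0.10 over conventional, edgeR adjusted p = 0.00821). The one that rose was dhx9, an RNA helicase, which also rose in both comparisons of experiment 2, by 0.93 ± 0.15 over conventional heads (adjusted p = 0.000489) and 0.94 ± 0.15 over re-colonized heads (adjusted p = 0.000736). Of the 16 sensors and adaptors tested in experiment 2, edgeR called 0 lower in either comparison, with 2 against conventional and 1 against re-colonized heads at an unadjusted p below 0.05, where DESeq2 and voom each called 1 and 0.

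Among 19 tested antiviral effectors other than the 10 genes, 8 fell against conventional and 7 against re-colonized heads in experiment 1, with medians of -0.16 and -0.24. The largest fall of those named was xaf1, an interferon-induced promoter of cell death in mammals, with 0.183 ± 0.1403 CPM in axenic, 0.982 ± 0.364 CPM in re-colonized and 0.726 ± 0.256 CPM in conventional heads (SD, n = 6 each). Its log2 fold changes were -2.32 ± 0.44 (edgeR adjusted p = 0.000623) and -1.90 ± 0.46 (adjusted p = 0.00534). The axenic mean lay below the filter level of 0.755 CPM, so xaf1 entered the test through its colonized libraries. In experiment 2, of 20 tested effectors, ch25hl1.1, a cholesterol 25-hydroxylase-like gene, fell against conventional heads (-1.96 ± 0.45, edgeR adjusted p = 0.00961) and ifit16 rose against re-colonized heads (2.05 ± 0.39, adjusted p = 0.00397). For ifit16 that was 1.80 ± 0.461 CPM in axenic (SD, n = 4) and 0.433 ± 0.126 CPM in re-colonized heads (SD, n = 7). The medians of the 20 were -0.024 over conventional and -0.11 over re-colonized heads, and xaf1 was not among them. Against re-colonized heads edgeR called 0 lower. At an unadjusted edgeR p below 0.05, 2 were lower against conventional and 1 against re-colonized heads, where DESeq2 and voom each called 2 and 0.

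Of 5 tested genes of ISG15 conjugation and interferon feedback, 3 fell against conventional and 4 against re-colonized heads in experiment 1, with medians of -0.89 and -1.09. They were the cytokine signalling inhibitors socs3a (-1.35 ± 0.22 over conventional heads, edgeR adjusted p = 9.85e-05), socs3b and socs1a, and against re-colonized heads also uba7, whose mammalian counterpart activates ISG15 for conjugation (-1.30 ± 0.36, edgeR adjusted p = 0.0128). In experiment 2, of 5 tested, edgeR called only socs3b lower against conventional heads (-1.02 ± 0.24, adjusted p = 0.0120). The median there was -1.05, with 4 of the 5 lower at an unadjusted p below 0.05, and DESeq2 and voom called 2 each. Against re-colonized heads edgeR called 0, with 3 lower at an unadjusted p below 0.05 and 1 called by DESeq2 and by voom. Of 14 antigen-processing genes known to respond to interferon-gamma, 4 fell against conventional and 8 against re-colonized heads in experiment 1, with medians of -0.47 and -0.68. The immunoproteasome subunit gene psmb8a fell by 2.14 ± 0.56 on the log2 scale against conventional (edgeR adjusted p = 0.00982) and by 2.78 ± 0.54 against re-colonized heads (adjusted p = 0.000684). Its levels were 0.186 ± 0.216 CPM in axenic, 1.35 ± 0.543 CPM in re-colonized and 0.871 ± 0.419 CPM in conventional heads (SD, n = 6 each). With its axenic mean below the filter level of 0.755 CPM, psmb8a entered the test through colonized libraries. The gene b2m, the light chain of MHC class I, averaged 3.13 ± 0.8501 CPM in axenic, 13.5 ± 4.07 CPM in re-colonized and 7.24 ± 2.89 CPM in conventional heads (SD, n = 6 each). In experiment 2 edgeR called 0 of 16 antigen-processing genes lower in either comparison, with medians of -0.49 over conventional and -0.25 over re-colonized heads. At an unadjusted p below 0.05, 3 and 1 were lower; DESeq2 called 1 and 0, and voom 0 in both.

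**Figure D5:**
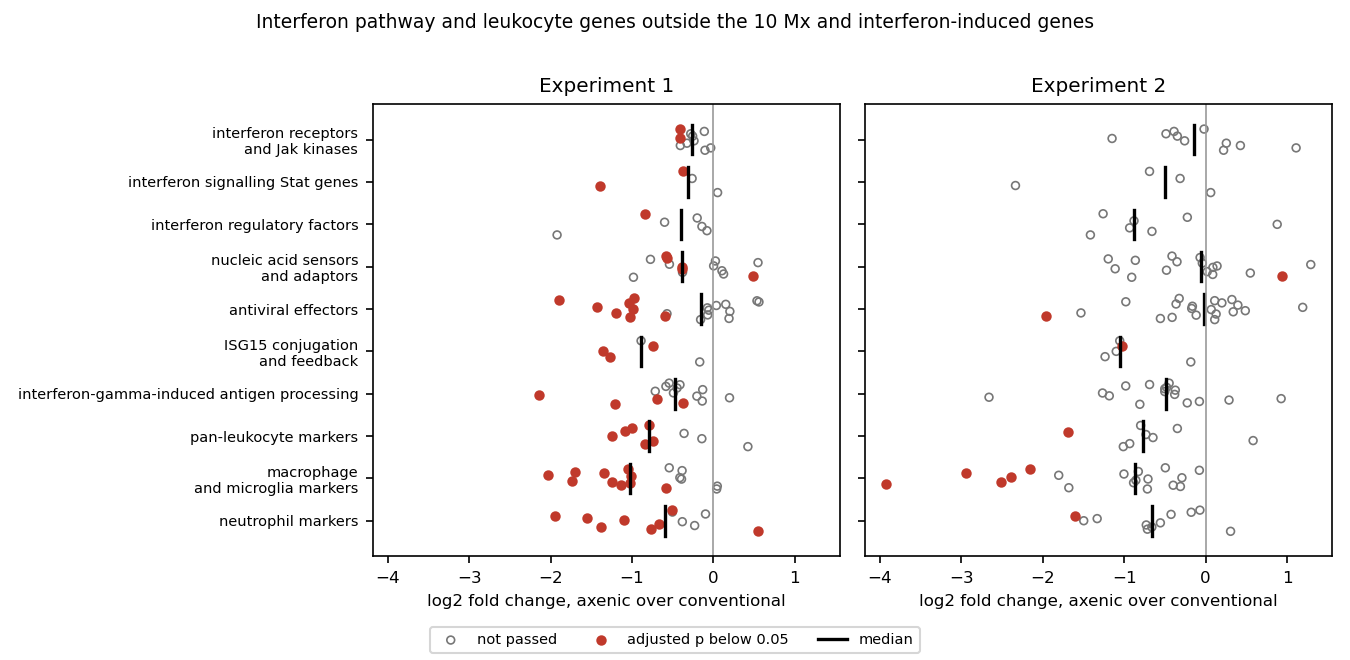
Log2 fold changes of axenic over conventional heads (x axis) for genes of interferon pathway lists and leukocyte marker lists (rows), without the 10 genes, in experiment 1 (left) and experiment 2 (right). Filled points passed edgeR's test at an adjusted p below 0.05, open points did not, and black bars are list medians, which lie farthest left at -1.02 for the macrophage and microglia markers of experiment 1 and at -1.05 for ISG15 conjugation and feedback in experiment 2.

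Most myeloid and pan-leukocyte markers were also lower in axenic heads of experiment 1. Of 9 tested pan-leukocyte markers, 6 fell against conventional and 6 against re-colonized heads in experiment 1, with medians of -0.80 and -1.20. Their summed level over 10 genes was 22.3 to 32.9 CPM in axenic, 51.7 to 73.2 CPM in re-colonized and 40.8 to 58.8 CPM in conventional libraries, so every axenic library lay below all others. In experiment 2 it was 75.6 to 97.7 CPM in axenic, 59.3 to 169 CPM in re-colonized and 96.1 to 284 CPM in conventional libraries, with overlap. Of 8 tested there, edgeR called 1 lower against conventional heads. At an unadjusted p below 0.05, 5 were lower in that comparison, and DESeq2 and voom called 2 each. Against re-colonized heads edgeR called 0 (0 also at an unadjusted p below 0.05, with DESeq2 and with voom). The medians were -0.77 over conventional and -0.30 over re-colonized heads. Of 16 macrophage and microglia markers, 10 fell in each comparison of experiment 1, and of 18 in experiment 2, 5 fell against conventional and 4 against re-colonized heads. Of 12 tested neutrophil markers, 7 fell and 1 rose against conventional and 8 fell and 1 rose against re-colonized heads in experiment 1. In experiment 2, of 11 tested, edgeR called 1 lower against conventional heads, with 2 lower at an unadjusted p below 0.05. DESeq2 and voom called 1 each in that comparison. Against re-colonized heads edgeR called 0, with 4 lower at an unadjusted p below 0.05 and 0 called by DESeq2 and voom. The summed level of the neutrophil markers in experiment 1, in contrast, was 512 to 826 CPM in axenic libraries, against 418 to 607 CPM in re-colonized and 367 to 650.1 CPM in conventional libraries. Of the conventional mean sum of 504 CPM, the falling markers mpx, mmp9, mmp13a and srgn gave 19.2, 12.67, 3.36 and 16.35 CPM. Other markers of the list thus carried most of this sum, and it is not read as neutrophil content. Of genes listed as T and NK-like lymphocyte markers, 1 of 5 fell against conventional and 2 of 5 against re-colonized heads in experiment 1, with medians of -0.098 and -0.15. In experiment 2 edgeR called 0 of 7 lower in either comparison, with medians of 0.45 and 0.31, 1 and 0 lower at an unadjusted p below 0.05, and 0 called by DESeq2 and voom. The median of -0.098 was the value of cd3eap, and both medians of experiment 2 were those of runx3. Whether cd3eap and runx3 mark lymphocytes in these heads was not tested, so neither the medians nor the counts of this list are read as lymphocyte levels. No pan-leukocyte, macrophage and microglia or neutrophil marker was at 0 in a whole group except c1qa in axenic heads of experiment 2. Skin and gill, gut and liver, and muscle marker sums had higher medians in axenic heads of both experiments: skin and gill markers, for one, summed to 2268 to 3630 CPM in axenic, 1009 to 1600 CPM in re-colonized and 968 to 1365 CPM in conventional libraries of experiment 1. Their part in the levels of the 10 genes was not tested.

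Across all 18 libraries of an experiment, the genes most like the mean of mxf, isg15, irf1b, irf7 and irf9 were found by Spearman correlation of log2 levels, in both experiments. The one with a gene name of known role was fosl1a, a subunit of the transcription factor AP-1, with rho = 0.798 in experiment 1 and 0.748 in experiment 2 (n = 18 libraries each). It averaged 2.24, 4.02 and 3.91 CPM in axenic, re-colonized and conventional heads of experiment 1. The others were zgc:153932 (rho = 0.845 and 0.715), si:ch73-181m17.1 (0.864 and 0.728), si:ch211-39f2.3 (0.796 and 0.738), si:ch211-226h7.5 (0.837 and 0.744), FO904966.1 (0.858 and 0.744), si:ch73-252i11.1 (0.7503 and 0.744) and CABZ01069184.1 (0.752 and 0.756). These points share libraries and groups, so the correlations carry the difference between axenic and colonized heads and are a description only.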

How the data were processed

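Per the labels' protocols, stranded libraries of ribosomal-RNA-depleted RNA (experiment 1) and polyA libraries (experiment 2) were sequenced. Per the submitters' processing notes, bcl2fastq, Partek 8.0.19.0428 and STAR 2.5.3a were used with GRCz11. How reads were counted, and on which strand, is not given in the sources used here. The deposited values are estimated counts per gene, not normalized: 9.44% and 17.3% lay over 0.01 from a whole number. The design had assumed raw counts; its test was kept after rounding.

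Each experiment was fitted alone with edgeR 4.0.16 (R 4.3.3): quasi-likelihood test, TMM scaling, filter on low counts, group means over 18 libraries, two-sided, Benjamini-Hochberg over 19727 and 20169 genes, threshold 0.05. SEs are |log2 fold change| over the root of F. CPM are after TMM. Sums of low genes were compared by ratio with 95% exact intervals, which cover counting error only and leave out the spread between libraries. The procedure was tested on simulated data. No libraries of the same group were duplicates: counts of 2 libraries of a group differed by a chi-square of at least 5.24 (experiment 1) and 27.3 (experiment 2) per degree of freedom. Libraries of different groups were not compared in this way. Alternatives were DESeq2 1.42.0, limma 3.58.1 voom with quality weights, other filters and scalings, a replicate block and leaving out libraries. Ratios of sums use TMM library sizes. Summing neighbouring Mx genes, and total counts as an alternative in those ratios, were chosen after seeing the data.

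The genes and lists were chosen with earlier results of these data known. One gene of the regulatory factor list is not reported here and was left out of its counts. Named genes are the 10, mxd and mxg, up to 4 called genes per list and comparison with the smallest adjusted p, and the 8 most alike by Spearman correlation, with at least 1 CPM.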

Additional observations from a re-analysis of the deposited data

Results flagged for a closer look

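In 16 of 59 groups of 4, 6 or 7 libraries, the level of a gene in 1 library stood apart from the rest of its group. The cut-off marks about 1 in 20 groups of normally distributed values, a rate that levels resting on few counts need not follow. The 16 can therefore not be set against that rate. No cause was tested.

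For mxf this was axenic D of experiment 1, at 0.426 CPM. For irf1b it was re-colonized B of experiment 1, at 8.13 CPM. For irf9 it was conventional 7 of experiment 2, at 3.11 CPM. For isg15 it was re-colonized 2 of experiment 2, at 1.63 CPM, and conventional 2 of experiment 2, at 8.52 CPM. For rsad2 it was axenic 4 at 0.201 CPM, re-colonized 3 at 0.266 CPM and conventional 2 at 1.49 CPM, all of experiment 2. For mxa it was axenic 1 of experiment 2, at 0 CPM. For mxb it was axenic G of experiment 1 at 0.205 CPM, re-colonized H of experiment 1 at 0.337 CPM and re-colonized 6 of experiment 2 at 0.121 CPM. For mxc it was axenic 3 of experiment 2 at 0.245 CPM, conventional 7 of experiment 2 at 3.85 CPM and conventional B of experiment 1 at 0.807 CPM. For mxe it was re-colonized 4 of experiment 2, at 0.348 CPM. Many of these values rest on a handful of counts.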

How the results depend on the processing

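Genes called lower in axenic heads numbered 4 in either comparison of experiment 1. With only the compared groups in the fit they numbered 2 (isg15 and irf1b), and mxf failed the filter. Leaving out 1 library gave 2 to 4 against conventional and 3 to 4 against re-colonized heads. These comparisons were in view when the genes were chosen, so nothing is read from these calls or from how they change. Among all tested genes, 6.71% were called lower against conventional and 8.27% against re-colonized heads. In the main fit mxf passed the filter through colonized libraries. Its filter level was met by 5 re-colonized and 5 conventional libraries, but by 0 axenic ones. In experiment 2 the 3 against conventional heads became 1 at a mean of at least 1 CPM, which removes mxf and isg15, and 0 to 3 with 1 library left out. The 1 against re-colonized heads became 2 with DESeq2, 2 with only the compared groups, 0 at 1 CPM, 0 without re-colonized 1 and 7, and 0 to 1 with 1 library left out. Over all genes, re-colonized against conventional heads of experiment 1 had 3 calls, 5 with DESeq2, 6 with the replicate block and 0 to 8 with 1 library left out. In experiment 2, axenic against conventional heads had 1237 calls, 1903 with DESeq2, 2068 with voom and 391 (without axenic 7) to 1521 with 1 library left out. Against re-colonized heads there were 785, 368 without re-colonized 1 and 7, and 165 (without axenic 7) to 794 with 1 library left out. Re-colonized against conventional heads there had 0 calls with edgeR (2751 genes at an unadjusted p below 0.05), 119 with DESeq2, 118 with voom, 2 with the replicate block and 0 to 1 with 1 library left out. The same replicate letter or number was not taken to pair the libraries, since the labels give no shared source and not every pair correlated over 0.1: correlations of deviations between same-numbered libraries ran from -0.037 to 0.23 in experiment 1 (4 of 13 over 0.1) and from -0.19 to 0.40 in experiment 2 (10 of 15), and 5 of 17 and 10 of 18 libraries correlated best with one of their own number, which in experiment 2 is a hint from the data of a shared source, not the design. With the replicate block, axenic against conventional heads had 3149 calls in experiment 1 and 1705 in experiment 2, and axenic against re-colonized heads 2279 and 1093. The experiment 2 calls of the 10 genes stayed. In experiment 1 irf7 lost its call, and as said above nothing is read from the calls of these genes there.

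Directions turned only for log2 fold changes that had not passed edgeR's test. For re-colonized over conventional heads, voom gave -0.033 for mxf in experiment 1, and 0.13 for mxc, 0.32 for mxf and 0.11 for irf1b in experiment 2. The replicate block gave 0.050 for isg15 in experiment 1 and 0.044 for mxc and 0.048 for mxf in experiment 2, and for axenic over conventional heads of experiment 2 it gave -0.17 for irf9. With 1 library left out, re-colonized over conventional heads ranged over -0.10 to 0.71 for mxf, -0.38 to 0.042 for isg15 and -0.054 to 0.16 for irf7 in experiment 1, and over -0.59 to 0.43 for mxc, -0.57 to 0.10 for mxf and -0.044 to 0.75 for irf9 in experiment 2. In experiment 2, axenic over conventional heads ranged over -0.83 to 0.20 for mxc, -1.03 to 0.29 for irf7 and -0.16 to 0.55 for irf9, and axenic over re-colonized heads over -0.38 to 0.063 for mxc and -0.42 to 0.088 for irf9. The cause of these shifts was not tested. Of the single-gene results under other settings, 279 kept direction and side of the threshold, 3 gained the call, 3 lost it and 8 turned; with 1 library left out 862 kept both, 20 lost the call, 21 turned and 4 moved without a test. Few counts per library limit mxa, mxb, mxe and rsad2, and 4 axenic pools limit experiment 2.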
